A study of Rattus norvegicus with 15 samples.

Results

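The subfornical organs of water-deprived rats were compared with those of control rats on 10 Affymetrix arrays, 5 per group, out of the 15 arrays of the study. The arrays were chosen by their titles, and all 31042 probe sets other than the spike and hybridization controls were used, of which 21729 had enough signal to be tested. Every rat was a male Sprague Dawley animal aged 10 to 12 weeks, and each array carried RNA pooled from the organs of 5 animals, so that the 5 arrays of a group are 5 separate pools. The design text calls the control animals untreated, and the length of the water deprivation was not found in the labels. The same text, read literally, says that the animals of every condition, the control and water-deprived groups included, were denied food for 48 hours, whereas the sample labels give food deprivation only for the third group, which was not used here. The organ was cut by hand from a brain slice under a microscope.

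The organ lines the third ventricle beneath the fornix and has leaky vessels in place of a tight blood-brain barrier. Its neurons and glia read circulating angiotensin II, sodium, natriuretic peptides and other hormones, and its excitatory neurons drive thirst, salt appetite and the release of vasopressin through projections to the hypothalamus. In activated neurons, immediate early genes such as Fos are transcribed first, and neurotrophins and secreted peptides such as Bdnf and Vgf belong to the later activity-dependent response. In bulk tissue such as this, fewer cells of a type and less RNA per cell cannot be told apart.

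The water-deprived arrays were of 2 kinds. The mean log2 ratio of the 5' to the 3' control probe sets for beta-actin and GAPDH, a measure of RNA integrity and labelling, was -0.78 and -0.72 in water-deprived arrays 1 and 2, and -2.81, -1.28 and -1.37 in arrays 3 to 5. All 5 controls lay between -1.67 and -1.24, so at a split of -1 arrays 1 and 2 formed a high-ratio set without any control, and the nearest array below the split was control 3 at -1.24. The group means were -1.39 ± 0.84 (SD, n = 5) against -1.49 ± 0.19 (SD, n = 5; exact permutation test over all splits, two-sided p = 0.881), with array 3 below all controls and arrays 1 and 2 above them. The dim end of the signal was higher in the high-ratio arrays, with a lower quartile of 16.7 and 17.2 signal units against 12.3 to 14.2 in the other 8 arrays. Pairwise correlations over all probe sets ranged from 0.893 to 0.982.

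**Figure D1:**
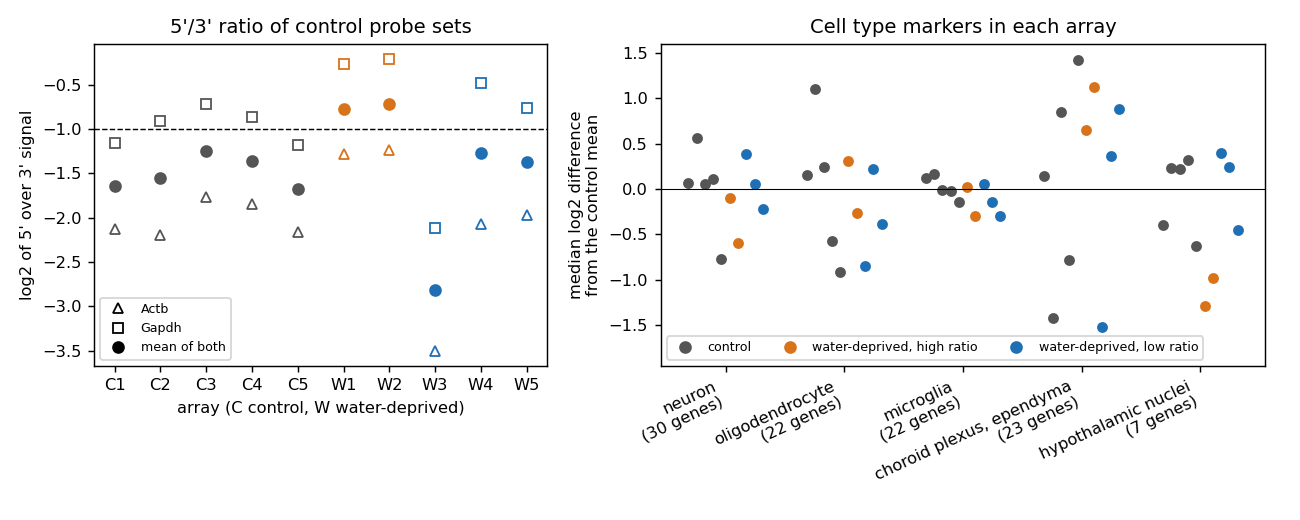
Left, log2 ratio of 5' over 3' signal for the control probe sets of Actb (triangles), Gapdh (squares) and their mean (filled circles) in control arrays C1 to C5 and water-deprived arrays W1 to W5, with the split at -1 as a dashed line. Right, median log2 difference from the control mean over the measured markers of 5 cell types or regions in each array. Only W1 and W2 have means above the split, and choroid plexus and ependymal markers range from -1.42 to 1.42 among the controls alone.

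A pair of fits was therefore made with limma, a linear model with moderated variances, on log2(signal + 16). The first compared all 5 water-deprived arrays with the 5 controls. The second added the ratio set as a term, so that its difference is that of the 3 low-ratio water-deprived arrays from the 5 controls. At an adjusted p of 0.05 the first fit called 0 probe sets higher and 0 lower (0% each of 21729; smallest adjusted p 0.149), and the second also called 0 and 0 (smallest adjusted p 0.112). At an unadjusted p under 0.05 the first fit held 352 higher (1.62%) and 559 lower (2.57%), together 911, where 1086.5 would be expected by chance. The second held 299 higher (1.38%) and 604 lower (2.78%), together 903. A few genes passed when arrays were weighted by the scatter of their own values in the fit. Below this is called weighting by quality, and it does not use the 5'/3' ratio. A few also passed when the food-deprived arrays, all high-ratio at -0.86 to -0.71, were added to estimate the spread. The genes that passed in either way are named below. All values that follow are log2(signal + 16) and are given in array order, water-deprived 1 to 5 and then control 1 to 5; this scale understates the fold change of dim genes.

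Among 21729 probe sets, 82 (0.377%) had all 5 water-deprived arrays above all 5 controls and 84 (0.387%) had all 5 below. In 9 of the first kind (0.0414%) and 7 of the second (0.0322%), the high-ratio and the low-ratio arrays also each differed from the control mean by at least 0.58, about 1.5-fold. The 9 higher ones were Bdnf, Bpifa1, Mmp3, Ccl2, Htr5b, Sctr, Plk2, RT1-T24-3 and Grp. The filter kept probe sets with a mean above 5.07 over the 10 arrays, and Mmp3, Htr5b and Grp had control means of 4.61, 4.78 and 5.04. These 3 therefore entered the fits only through the water-deprived arrays, in which they had to be higher, so their values below are a description without a fold change and their p-values support nothing. The same held for 12 of the 82 (control mean under the filter) and 9 of the 84 (water-deprived mean under it). The 7 lower ones were both probe sets of Dnmt3a, G0s2, a probe set of Ccnd1 and 3 probe sets that the platform annotation does not name (1376928_at, 1375378_at and 1395244_at, at -0.95, -0.82 and -0.70).

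Bpifa1 (probe set 1384325_at), a secreted protein best known from the lining of the airways, had the smallest p of the first fit. Its levels were 6.04, 6.37, 6.43, 6.21 and 6.29 in the water-deprived arrays and 5.49, 5.29, 5.07, 5.01 and 5.43 in the controls. The lowest water-deprived array was above the highest control, and the high-ratio arrays differed from the control mean by 0.95 and the low-ratio arrays by 1.05. The mean difference was 1.01 (SE 0.13, 2.02-fold; limma adjusted p = 0.149), and with the food-deprived arrays added to the fit the adjusted p was 0.0130.

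Htr5b (1388219_at) encodes a serotonin receptor. Its levels were 5.47, 5.53, 5.84, 5.67 and 5.64 in water deprivation and 4.57, 4.95, 4.87, 4.72 and 4.81 in control, which do not overlap. The difference on this scale was 0.85 (SE 0.12), with the controls under the filter.

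Mmp3 (1368657_at), the matrix metalloproteinase stromelysin-1, stood at 5.58, 5.32, 6.04, 5.38 and 5.40 against 4.61, 4.63, 4.71, 4.64 and 4.47. Array 3 was the highest and the controls lay close together. The difference on this scale was 0.93 (SE 0.15), with the controls under the filter, and 0.81 without water-deprived array 3. With arrays weighted by quality, the only 3 probe sets called higher were Bpifa1, Htr5b and Mmp3 (limma adjusted p = 0.0456 each), and in the fit of all 15 arrays only Bpifa1 and Mmp3 were (limma adjusted p = 0.0130 and 0.0477). Of these, Bpifa1 alone had a control mean above the filter. With the filter at the 50th percentile none of the 3 was bright enough to be tested.

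Bdnf (1368677_at), the brain-derived neurotrophic factor, showed the widest difference of these genes. Its levels were 6.87, 6.74, 8.59, 7.10 and 7.65 in water deprivation and 5.78, 6.74, 5.53, 5.32 and 4.35 in control. Water-deprived array 2 and control 2 were equal to 2 decimals, so the groups only just failed to overlap. The difference was 1.85 (SE 0.43, 3.60-fold; unadjusted p = 0.00124, limma adjusted p = 0.967), or 1.26 for the high-ratio and 2.24 for the low-ratio arrays. The second Bdnf probe set, which is dimmer, gave 0.36.

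Gastrin-releasing peptide, Grp, was at 5.78, 5.80, 6.04, 5.78 and 5.40 in water deprivation and at 5.37, 5.23, 5.05, 4.90 and 4.66 in control, a difference on this scale of 0.72 (SE 0.16), with the control mean under the filter. Its high-ratio and low-ratio arrays differed from control by nearly the same amount, 0.75 and 0.70. Sctr, the secretin receptor, was at 6.23, 5.95, 6.56, 6.29 and 6.40 against 5.46, 5.53, 5.19, 5.91 and 5.43 (difference 0.78, SE 0.15). Only control 4 came near the water-deprived arrays.

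Plk2, a polo-like kinase induced by neuronal activity, was at 7.27, 7.77, 7.33, 7.29 and 7.56 in water deprivation and 6.52, 6.40, 6.85, 6.47 and 7.19 in control (difference 0.76, SE 0.17). Control 5 was the highest control and lay just under the lowest water-deprived array. The chemokine Ccl2, which attracts monocytes, was at 5.98, 6.02, 7.01, 6.23 and 6.41 against 5.49, 4.96, 5.02, 5.64 and 5.89 (difference 0.93, SE 0.23). The class I histocompatibility gene RT1-T24-3 differed by 0.72 (SE 0.25), and by 0.47 without control 1, whose value of 4.90 was far below the other controls.

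Further genes that lay above all controls in all 5 arrays, by smaller amounts, were Deptor, an inhibitor of the kinase mTOR, and Spry4, an inhibitor of receptor tyrosine kinase signalling. Deptor varied little, with 8.09, 7.98, 8.01, 7.93 and 7.96 in water deprivation and 7.39, 7.41, 7.31, 7.69 and 7.62 in control (difference 0.51, SE 0.10). Spry4 differed by 0.47 (SE 0.12). The limma adjusted p of Sctr, Deptor, Plk2, Grp, Spry4, Ccl2 and RT1-T24-3 was 0.967 in the first fit.

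**Figure D2:**
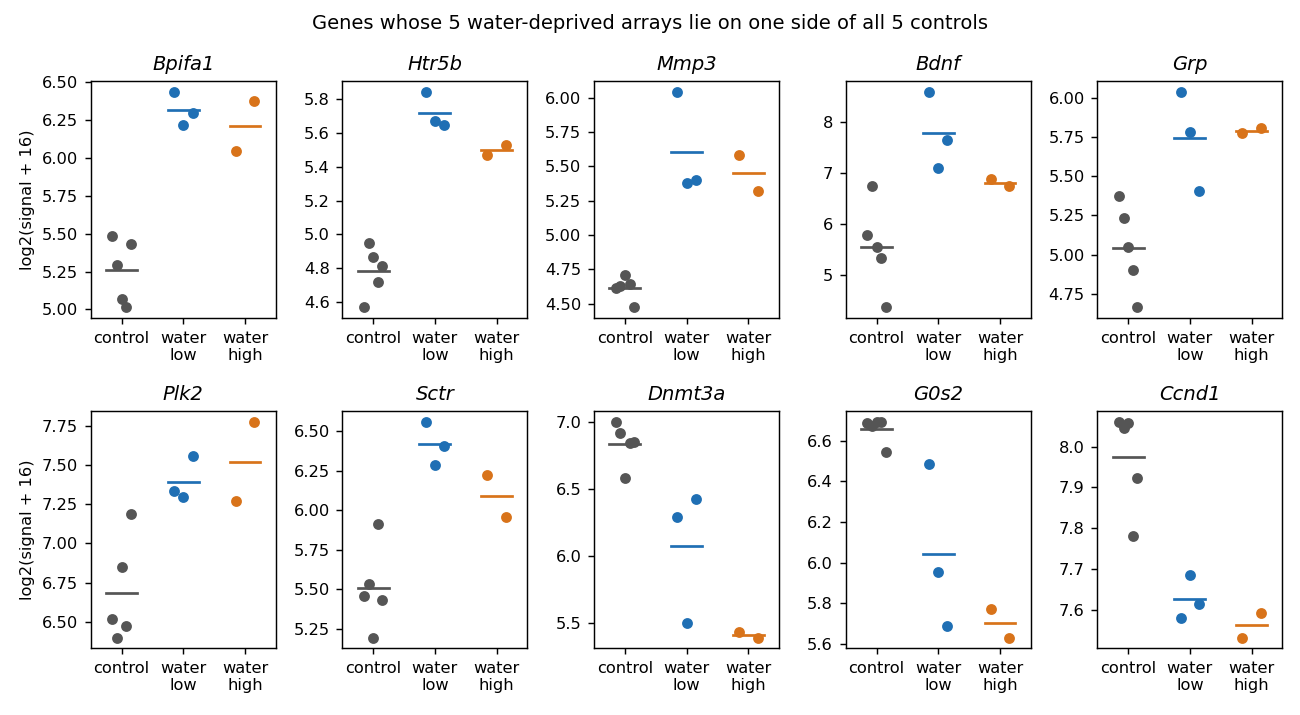
log2(signal + 16) of 10 genes in each control array (grey), low-ratio water-deprived array (blue, n = 3) and high-ratio water-deprived array (orange, n = 2), with the mean of each set as a line. In each panel the 5 water-deprived arrays lie on one side of the 5 controls; each panel has its own vertical range, which does not start at 0.

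The lower genes included an enzyme of DNA methylation, a cell cycle regulator and an inhibitor of fat breakdown. Dnmt3a (1384804_at), a de novo DNA methyltransferase, was at 5.43, 5.39, 6.29, 5.50 and 6.42 in water deprivation and at 7.0, 6.92, 6.58, 6.84 and 6.85 in control. Arrays 1, 2 and 4 were lowest, and the groups did not overlap. The difference was -1.03 (SE 0.21, 2.04-fold; limma adjusted p = 0.967), and its second probe set gave -0.92, also without overlap.

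G0s2 (1388395_at), an inhibitor of the lipase that breaks down stored fat, was at 5.77, 5.63, 6.49, 5.95 and 5.68 against 6.69, 6.67, 6.69, 6.69 and 6.55. The controls were tight, and water-deprived array 3 was nearest to them. The difference was -0.75 (SE 0.16, 1.69-fold; limma adjusted p = 0.967), and with arrays weighted by quality G0s2 was the only probe set called lower (-0.86, adjusted p = 0.0456).

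Cyclin D1, Ccnd1, which drives entry into the cell cycle, was lower on each of its 3 probe sets without overlap. Its brightest probe set was at 7.53, 7.59, 7.58, 7.68 and 7.61 in water deprivation and at 8.06, 8.05, 8.06, 7.78 and 7.92 in control (difference -0.37, SE 0.10). The others gave -0.34 and -0.85.

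Col2a1, a fibrillar collagen chain, was at 5.42, 5.38, 5.71, 5.62 and 5.84 against 6.18, 6.07, 6.09, 6.25 and 6.01 (difference -0.53, SE 0.12). Cntf, the ciliary neurotrophic factor, differed by -0.53 (SE 0.14), Cndp1, the carnosine dipeptidase, by -0.39 (SE 0.11), and Car3, a carbonic anhydrase, by -0.48 (SE 0.13, with water-deprived array 5 at 7.71 just above control 2 at 7.69). A second, dimmer Car3 probe set gave -0.0087 over the 5 arrays and 0.54 in the high-ratio arrays, so the 2 probe sets of that gene disagree. Pogk differed by -0.54 and the oestrogen-responsive gene Greb1 by -0.52. The metalloproteinase Adamts9 differed by -0.49 on its brightest probe set and by 0.24 on another, and these also disagree. Apart from Car3 and the second Adamts9 probe set the groups did not overlap, and the limma adjusted p was 0.967 for each of these genes.

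With the ratio set as a term, the smallest adjusted p of 0.112 was shared by 6 genes. They were Htr5b (its controls under the filter) and Bpifa1, already described, and Vgf, Casr, Fxyd2 and Ercc1, in which the 3 low-ratio water-deprived arrays lay above all 5 controls while the 2 high-ratio arrays did not. Over all probe sets, the 3 low-ratio arrays lay above all controls in 249 (1.15%) and below all controls in 415 (1.91%), of which 19 had a control mean and 70 a low-ratio mean under the filter. These shares were not compared with a chance share.

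Vgf (1368359_a_at), a secreted precursor of several bioactive peptides that is induced by neurotrophins and activity, was at 8.04, 8.12, 10.06, 9.42 and 9.22 in water deprivation and at 7.53, 8.0, 7.56, 8.25 and 7.02 in control. Arrays 3 to 5 were far above the controls, and arrays 1 and 2 were inside their range. The difference was 1.89 with the set term (SE 0.27, 3.72-fold; limma adjusted p = 0.112) and 1.30 over all 5 arrays (SE 0.38). The high-ratio arrays were below the low-ratio ones by -1.49 (SE 0.34; limma adjusted p = 0.0279), so the 2 kinds of water-deprived array differed from each other past the threshold.

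Casr (1369158_at), the calcium-sensing receptor, was at 6.35, 6.31, 7.16, 7.59 and 7.36 against 6.07, 5.60, 6.07, 6.54 and 5.79. Its difference was 1.35 with the set term (SE 0.20, 2.55-fold; limma adjusted p = 0.112) and 0.94 over all 5 arrays. Control 4 was above both high-ratio arrays.

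Fxyd2 (1387799_at), the gamma subunit that modulates the sodium pump, was at 6.24, 6.01, 7.17, 7.22 and 7.03 against 5.89, 5.68, 5.77, 6.46 and 5.97. Its difference was 1.18 with the set term (SE 0.17, 2.27-fold), and without control 4, the highest control, it was 1.31 and passed (limma adjusted p = 0.0400). Ercc1 (1399032_at), a DNA excision repair protein, was at 6.97, 7.10, 8.20, 7.94 and 7.87 against 7.15, 7.23, 7.09, 7.21 and 7.29, with a set-term difference of 0.80 (SE 0.11, 1.75-fold). Its high-ratio arrays included the lowest value of the 10.

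With the food-deprived arrays added to this fit, 7 probe sets passed as higher (Vgf, Bpifa1, Fxyd2 and Ercc1 at an adjusted p of 0.0147, Casr at 0.0226, Mmp3 at 0.0418 and the unnamed probe set 1391923_at at 0.0147). With arrays weighted by quality, 5 passed (Vgf, Casr, Htr5b and Ercc1 at an adjusted p of 0.0384 and Fxyd2 at 0.0478). All of these p-values are from limma, and those of Mmp3 and Htr5b are for probe sets with the controls under the filter. In the high-ratio set Casr, Fxyd2 and Ercc1 were below the low-ratio set by -1.04, -1.01 and -0.96 (limma adjusted p = 0.0317, 0.0214 and 0.00597).

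**Figure D3:**
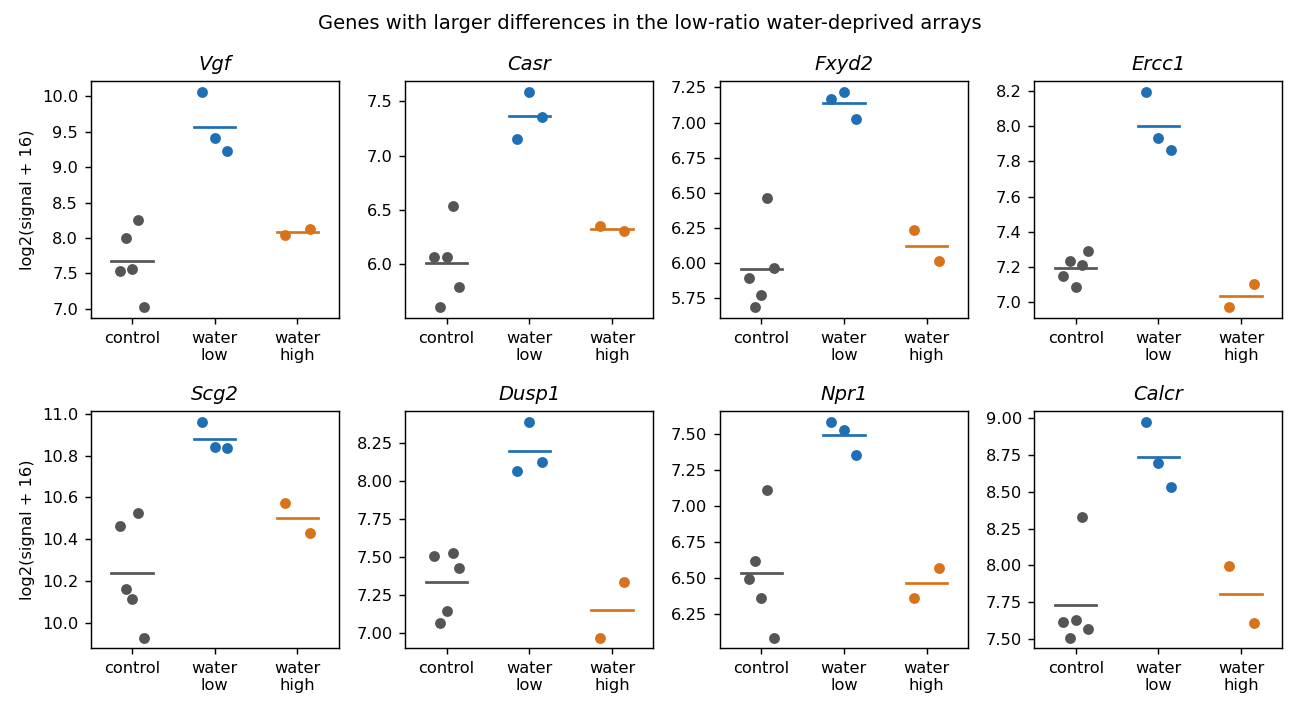
log2(signal + 16) of 8 genes in each control array (grey), low-ratio water-deprived array (blue, n = 3) and high-ratio water-deprived array (orange, n = 2), with the mean of each set as a line. The blue points lie above every control in all 8 panels, and the orange points lie within or close to the range of the controls; the vertical axes differ and do not start at 0.

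Hdac4, a histone deacetylase that shuttles between nucleus and cytoplasm, and Dusp1, a phosphatase that switches off MAP kinases, also had their 3 low-ratio arrays above all controls. Hdac4 was at 6.21, 6.62, 7.02, 7.25 and 7.02 against 6.14, 6.13, 6.35, 6.46 and 6.11 (set-term difference 0.86, SE 0.14; limma adjusted p = 0.233). Dusp1 was at 6.97, 7.34, 8.07, 8.39 and 8.12 against 7.51, 7.06, 7.14, 7.53 and 7.43 (0.86, SE 0.15; limma adjusted p = 0.364).

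Of the genes with the smallest p as lower with the set term, none passed. Ackr2, a decoy receptor that removes chemokines, was at 5.62, 5.41, 4.58, 4.50 and 5.12 against 5.38, 5.42, 5.39, 5.43 and 5.56 (-0.70, SE 0.15), with a water-deprived mean of 5.05, under the filter. Plek, a protein of blood-derived cells, differed by -0.55, the interferon-induced GTPase Gbp2 by -0.59, the lysosomal protease Ctso by -0.43 and Fgl2 by -0.40, while Pip5kl1 differed by -0.78. Ctso went the other way in the high-ratio arrays, at 0.24 above the control mean. The 4 probe sets of Fgl2 disagreed there, with the brightest at 0.27 and another at -0.54.

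Promoter windows are shown for the neuropeptide and immediate early genes that the results turn on and that hold the cyclic AMP response element TGACGTCA, the site bound by CREB and CREM. The sequences are from RefSeq on GRCr8 and run 5' to 3' on the strand of the gene, with the element in capitals.
Vgf, chr12:25277063-25277150, minus strand: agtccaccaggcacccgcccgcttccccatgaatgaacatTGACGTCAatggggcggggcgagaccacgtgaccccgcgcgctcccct
Scg2, chr9:88256942-88257029, minus strand: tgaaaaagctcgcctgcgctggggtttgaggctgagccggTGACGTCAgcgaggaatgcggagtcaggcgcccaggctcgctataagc
Cartpt, chr2:32991330-32991417, minus strand: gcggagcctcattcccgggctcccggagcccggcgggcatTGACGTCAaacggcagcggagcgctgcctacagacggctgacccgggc
Dusp1, chr10:17184689-17184776, plus strand: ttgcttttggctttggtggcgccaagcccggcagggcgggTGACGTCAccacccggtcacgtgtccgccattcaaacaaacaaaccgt
Crem, chr17:58984701-58984788, plus strand: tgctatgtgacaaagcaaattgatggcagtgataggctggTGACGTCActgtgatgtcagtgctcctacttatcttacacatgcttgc
The element starts 90 bases before the gene start in Vgf, 123 in Scg2, 142 in Cartpt, 124 in Dusp1 and 56 in Crem. Another Crem promoter, whose window is not shown, holds it 35 bases before its own start. In the 250 bases before the start, it was found in 531 of 33469 promoters (1.59%), counted by gene in 1.78% of 27457 genes. It was found in 3 of the 31 listed neuropeptide genes with a promoter in the table (9.68%; Vgf, Scg2 and Cartpt) and in 6 of 30 immediate early genes (20%; Dusp1, Crem, Btg2, Ier2, Jund and Maff). The AP-1 element, TGACTCA or its reverse complement TGAGTCA, which cannot be matched by the same letters, was found in 4.05% of promoters, in 0 of the 30 immediate early genes and in 2 of the 31 neuropeptide genes. A match is a description of the letters and says nothing of binding in these animals.

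Of the neuropeptide list, which holds precursors, granins and their processing enzymes, 29 of 41 genes were measured. Over all 5 arrays, 17 of the 29 were above control, with a median of 0.12, beside 49.4% above control and a median of -0.0024 over the 11519 genes tested. With the set term, 48.0% of those genes were above control. Over all 21729 probe sets, many without a gene name, the shares were 49.9% in the first fit, 43.6% with the set term and 53.8% in the high-ratio arrays. In the low-ratio arrays 26 of 29 were above control (median 0.37, or 0.17 without water-deprived array 3), and in the high-ratio arrays 14 of 29 (median -0.15). At an unadjusted p under 0.05, 8 were higher in the first fit and 9 with the set term, and 0 were lower in either. None of the 29 passed after adjustment. Over all probe sets, 1.62% and 1.38% were higher at that unadjusted p. The list was chosen with earlier results of these data known, so these counts are a description. They include Grp, whose control mean was under the filter. General neuron markers moved in the same direction between the 2 kinds of array, with a median of 0.11 over 30 genes in the low-ratio arrays (-0.11 without control 5, -0.03 without water-deprived array 3) and -0.38 in the high-ratio arrays, and their part in the peptide values was not tested.

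Scg2, a granin of dense-core vesicles, was at 10.57, 10.43, 10.96, 10.84 and 10.84 against 10.46, 10.16, 10.11, 10.53 and 9.93, a difference of 0.49 (SE 0.14) and of 0.64 with the set term (SE 0.13; limma adjusted p = 0.702). All 3 low-ratio arrays were above every control. Adcyap1, the precursor of the peptide PACAP, was at 8.55, 8.35, 9.39, 9.37 and 9.20 against 8.67, 7.38, 8.01, 8.85 and 7.98 (0.79 in the first fit and 1.14 with the set term). Cartpt, the CART prepropeptide, was at 7.36, 7.50, 8.36, 8.38 and 7.56 against 7.05, 7.26, 7.71, 7.17 and 6.88 (0.62 and 0.89), and here water-deprived array 5 was inside the control range.

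The hypothalamic peptides varied widely within each group. Vasopressin, Avp, was at 6.52, 6.42, 10.38, 9.77 and 8.37 in water deprivation and at 8.22, 10.46, 9.90, 8.03 and 8.09 in control. The high-ratio arrays were the lowest of the 10, and the other 8 ran from 8.03 to 10.46. Oxytocin, Oxt, was at 7.68, 6.54, 10.39, 11.20 and 8.80 against 8.73, 10.89, 10.82, 8.86 and 9.05, and melanin-concentrating hormone, Pmch, at 5.25, 6.23, 8.54, 8.24 and 7.54 against 8.18, 6.29, 9.61, 8.55 and 7.34. Their differences were -0.65, -0.75 and -0.83 in the first fit and 0.56, 0.46 and 0.11 with the set term, with SEs of 0.62 to 0.82. These peptides are made in hypothalamic nuclei. The 7 measured markers of those nuclei summed to log2 levels of 9.23 to 12.03 in water deprivation and 10.52 to 12.01 in control, and their part in other results was not tested.

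The thirst signalling list covers the angiotensin, natriuretic peptide, sodium and hormone receptors by which the organ senses the blood. Of its 44 genes, 26 were measured, and the angiotensin receptor Agtr1b, the natriuretic peptide receptor Npr3, the vasopressin receptor Avpr1a, the channel Trpv1 and the enzyme Nos1 were too dim to be tested. Over all 5 arrays 15 of 26 were above control, with a median of 0.10 (0.05 without control 3, 0.18 without water-deprived array 4), and 17 of 26 with the set term (median 0.09, or 0.02 without water-deprived array 3). At an unadjusted p under 0.05, 2 were higher in the first fit and 4 with the set term, and 0 were lower. After adjustment 0 of the 26 passed. Over all probe sets, 1.62% and 1.38% were higher at that unadjusted p.

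Agtr1a, the receptor for angiotensin II, was at 7.35, 7.53, 8.73, 8.75 and 8.51 in water deprivation and at 8.02, 6.14, 7.40, 8.20 and 7.40 in control. The 3 low-ratio arrays lay above all controls, and arrays 1 and 2 lay among them. The difference was 0.74 (SE 0.40) in the first fit and 1.23 (SE 0.38; limma adjusted p = 0.999) with the set term, and its other probe set gave 0.61 in either, with the high-ratio arrays as far above control (0.62) as the low-ratio ones. Control 2 was the lowest control, and without it the first-fit difference was 0.42.

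Npr1, the receptor of atrial natriuretic peptide, was at 6.36, 6.57, 7.58, 7.53 and 7.35 against 6.49, 6.62, 6.36, 7.11 and 6.09 (0.54 in the first fit, 0.95 with the set term, SE 0.20; limma adjusted p = 0.702). Calcr, the calcitonin receptor, which binds amylin together with its accessory proteins, was at 8.0, 7.61, 8.98, 8.70 and 8.53 against 7.61, 7.51, 7.63, 8.33 and 7.57 (0.63, and 1.01 with the set term, SE 0.20; limma adjusted p = 0.659). A second, dimmer Calcr probe set gave 0.44 and 0.22. Control 4 was the highest control for both receptors, as it was for Casr and Fxyd2. The high-ratio arrays were below the low-ratio arrays by -1.02 for Npr1 and -0.93 for Calcr (limma adjusted p = 0.0355 and 0.0476), whereas the second Calcr probe set was above by 0.54 (limma adjusted p = 0.352), so the Calcr probe sets disagree on this difference.

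Agt, the precursor of angiotensin, had overlapping groups. It was at 8.77, 8.18, 9.60, 9.24 and 8.96 against 8.94, 9.81, 9.11, 9.06 and 7.68, a difference of 0.03 (SE 0.36), which was -0.28 without control 5. Scn7a, the sodium sensor channel of glia in this organ, was at 5.28, 5.20, 5.78, 6.22 and 6.12 against 6.10, 5.11, 5.67, 6.74 and 6.05 (-0.21, SE 0.30; 0.11 with the set term). Control 4 was the highest of the 10 arrays for Scn7a.

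Immediate early genes were mostly above control by small amounts. Of the 28 measured of 40 listed, 25 were above control (median 0.12). At an unadjusted p under 0.05, 3 were higher in the first fit and 5 with the set term, and 0 passed. Over all probe sets, 1.62% and 1.38% were higher at that p. The count above control was 21 in the low-ratio (median 0.11, or 0.16 without water-deprived array 4) and 18 in the high-ratio arrays. Fosb was too dim to be tested.

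Fos was at 6.46, 6.24, 7.18, 6.85 and 6.68 in water deprivation and at 5.92, 6.67, 6.07, 6.01 and 5.46 in control. Control 2 lay among the water-deprived arrays, and the other controls below all of them. The difference was 0.66 (SE 0.23, 1.58-fold; unadjusted p = 0.0141, limma adjusted p = 0.967). Egr1 was at 6.81, 6.44, 7.72, 6.52 and 6.46 against 6.27, 6.55, 6.12, 6.22 and 6.03, a difference of 0.55 that was 0.32 without water-deprived array 3. Crem, a cyclic AMP responsive transcription factor, was at 7.80, 7.72, 7.62, 7.64 and 7.80 against 7.32, 7.05, 7.21, 7.08 and 7.60 without overlap (0.46, SE 0.12; unadjusted p = 0.00269), and its other 5 probe sets gave -0.06 to 0.35. A probe set at 0.29 among these had a control mean of 5.06, under the filter. Nr4a1, an orphan nuclear receptor, differed by 0.19 (SE 0.17), the AP-1 subunit Junb by 0.07 (SE 0.18) and the synaptic regulator Arc by 0.01 (SE 0.19).

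Glucocorticoid-responsive genes were above control in 24 of 29 cases, with a median of 0.28, which was 0.18 without water-deprived array 3 and also 0.18 without control 2. The median was 0.21 in the low-ratio arrays (0.12 without water-deprived array 4) and 0.14 in the high-ratio arrays. In the first fit 3 of the 29 had an unadjusted p under 0.05 as higher, beside 1.62% of all probe sets, and 0 passed. Sult1a1, a sulfotransferase, was at 9.17, 9.68, 8.86, 9.71 and 9.57 against 8.78, 7.33, 8.54, 9.15 and 8.79 (0.88, SE 0.30), and 0.58 without control 2. Angptl4, an inhibitor of lipoprotein lipase, varied little in water deprivation, at 6.43, 6.39, 6.44, 6.41 and 6.53, and more in control, at 6.06, 6.50, 5.72, 6.02 and 5.70 (0.44, SE 0.15). Nfkbia, the inhibitor of NF-kappa-B, differed by 0.50 (SE 0.21). Fkbp5, a chaperone of the glucocorticoid receptor, differed by 0.37 (SE 0.24), and by 0.15 without water-deprived array 3; its dimmer probe set gave 0.24.

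The osmolyte list did not lean to either side, with 6 of 14 measured genes above control and a median of -0.02 (-0.06 without water-deprived array 4, 0.01 without array 5). Nfat5, the transcription factor of the tonicity response, was at 8.17, 8.25, 8.93, 8.33 and 9.02 against 9.06, 8.54, 8.59, 8.63 and 8.86 (-0.20, SE 0.19), and its second probe set gave 0.03. Slc5a3, the myo-inositol transporter, was at 8.59, 9.63, 7.50, 8.54 and 9.16 against 8.67, 7.69, 8.75, 7.87 and 9.27 (0.24, SE 0.39), and the salt-regulated kinase Sgk1 at 9.91, 10.05, 8.77, 9.96 and 9.95 against 9.66, 8.49, 9.70, 8.63 and 10.36 (0.36, SE 0.36). For Sgk1, water-deprived array 3 and controls 2 and 4 were the low arrays, and the same 3 arrays had the lowest choroid plexus markers, whose part was not tested. The sodium pump list had 6 of 11 above control (median 0.06, from -0.09 without water-deprived array 4 to 0.21 without control 4). Its pump subunit Atp1b1 was at 0.24 (SE 0.13), with 0.51 in the high-ratio and 0.07 in the low-ratio arrays. Another subunit, Atp1b2, was at -0.72 (SE 0.33), with -1.64 and -0.10, and its dimmer probe set gave -0.37. On the brightest Atp1b2 probe set the high-ratio arrays were below the low-ratio arrays by -1.54 (limma adjusted p = 0.00158).

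Receptors that govern energy balance were above control in 17 of 20 cases (median 0.21), in 15 of 20 in the high-ratio arrays (median 0.35) and in 11 of 20 in the low-ratio arrays (median 0.04, or -0.02 without control 2). The somatostatin receptor Sstr2 was at 5.89, 5.78, 5.56, 5.62 and 5.73 against 5.22, 5.52, 5.29, 5.51 and 4.90 without overlap (0.43, SE 0.14). Its dimmer probe set gave 0.29, with a control mean of 4.94, under the filter. The apelin receptor Aplnr went the other way, at 5.63, 5.17, 4.51, 5.44 and 5.33 against 6.02, 6.75, 5.99, 6.04 and 5.43 (-0.83, SE 0.25; limma adjusted p = 0.967), with control 5 inside the water-deprived range. Gabrd, a GABA receptor subunit found outside synapses, was at 5.90, 5.68, 6.45, 5.48 and 5.12 against 4.69, 5.30, 4.98, 5.37 and 4.70 (0.72, SE 0.24), with a control mean of 5.01, under the filter.

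Genes of energy and protein turnover differed by small amounts, and none passed. All 69 measured genes of oxidative phosphorylation were above control over the 5 arrays (median 0.17, or 0.10 without water-deprived array 2), and 52 of 69 with the set term (median 0.06, from 0.03 without control 4 to 0.11 without control 5). In the high-ratio arrays 67 of 69 were above control (median 0.36), while the low-ratio arrays had medians of -0.0027, 0.08 and 0.08 and the controls ranged from -0.17 to 0.27. At an unadjusted p under 0.05, 4 of the 69 were higher in the first fit and 1 with the set term, beside 1.62% and 1.38% of all probe sets. On its brightest probe set Atp5if1, the inhibitor of the mitochondrial ATP synthase, was at 10.13, 10.05, 9.86, 9.84 and 9.84 against 9.66, 9.53, 9.63, 9.65 and 9.42 without overlap (0.37, SE 0.10). Its 2 dimmer probe sets gave 0.57, with a control mean of 4.97 under the filter, and 0.17 in this first fit. With the set term the brightest gave 0.27 and the dimmer ones -0.04 and -0.02.

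For the proteasome, 30 of 35 genes were above control in each fit (median 0.11 in each). At an unadjusted p under 0.05, 7 of 35 were higher in the first fit and 1 with the set term. The shares over all probe sets were 1.62% and 1.38%. Psmb2, a subunit of its catalytic core, was at 9.46, 9.59, 9.15, 9.34 and 9.07 against 8.89, 8.83, 8.99, 8.82 and 8.95 without overlap (0.43, SE 0.11), and the ATPase subunit Psmc3 differed by 0.23 (SE 0.09). Ribosomal proteins were above control in 28 of 34 cases (median 0.11, or 0.17 without water-deprived array 5), with medians of 0.25 in the high-ratio and 0.03 in the low-ratio arrays (-0.03 without water-deprived array 3). Rps9 differed by 0.22 (SE 0.10). After quantile normalization the ribosomal median was 0.01.

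**Figure D4:**
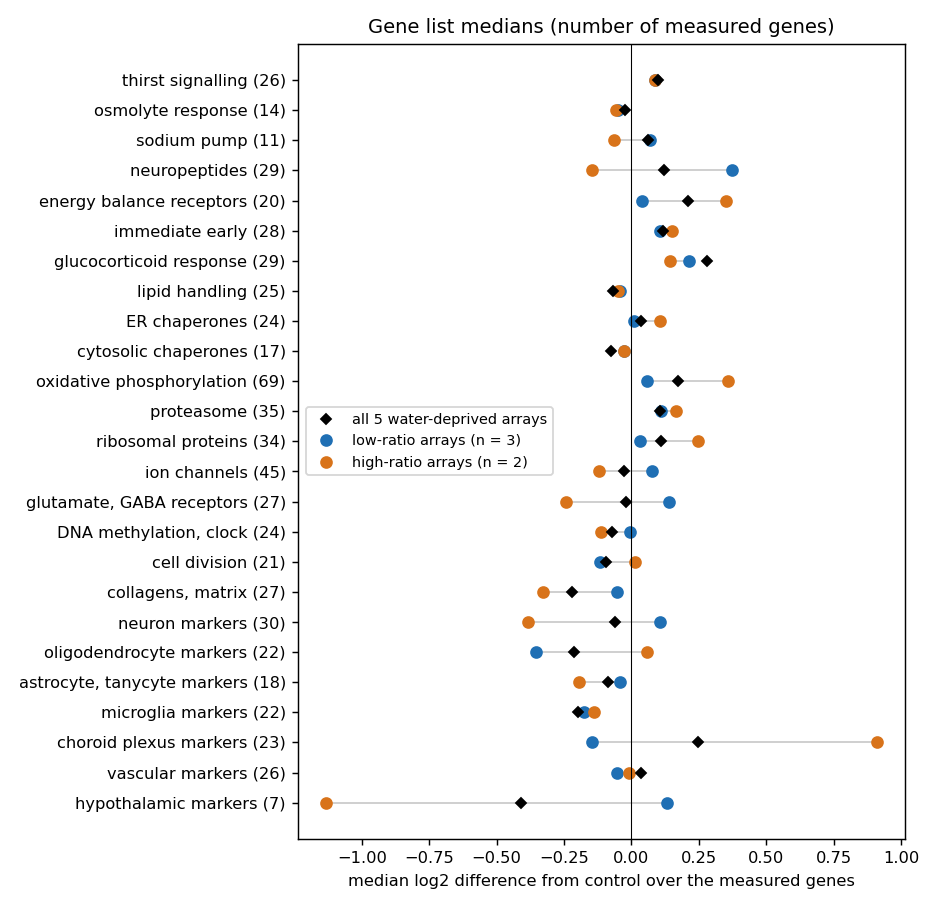
Median log2 difference from the control mean over the measured genes of 25 lists (number in parentheses; a blood cell list with 3 measured genes is not drawn), for all 5 water-deprived arrays (diamonds), the 3 low-ratio arrays (blue) and the 2 high-ratio arrays (orange). The neuropeptide, neuron, choroid plexus and hypothalamic lists lie on opposite sides of 0 in the 2 kinds of array. So do the oligodendrocyte, ion channel, glutamate and GABA receptor, sodium pump and cell division lists. Leaving out 1 array turns the low-ratio median of the choroid plexus list (-0.145, or 0.61 without W3), the hypothalamic list (0.13, or -0.056 without C2) and the neuron list (0.11, or -0.11 without C5). The glucocorticoid, proteasome and immediate early lists lie above 0 in each kind of array.

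Collagens and other matrix genes leaned the other way, with 5 of 27 above control (median -0.22), and medians of -0.33 in the high-ratio and -0.05 in the low-ratio arrays (-0.25 without control 2, 0.02 without control 5). At an unadjusted p under 0.05, 3 were lower, among them Col2a1 and Col12a1 (-0.38, SE 0.13). Among 22 microglial and macrophage markers, 6 were above control (median -0.20, or -0.09 without water-deprived array 5 and -0.12 without control 2). Of the 22, 4 were lower at an unadjusted p under 0.05 and 0 passed. The 4 include Cx3cr1, whose water-deprived mean was under the filter, so that it had to be lower. Over all probe sets 2.57% were lower at that p, the share to set beside the matrix and microglial counts. The medians of the microglial list were 0.02, -0.30, 0.05, -0.14 and -0.30 in the water-deprived arrays and 0.12, 0.17, -0.01, -0.02 and -0.14 in the controls, so the groups overlapped, and the summed log2 levels were 12.06 to 12.43 and 12.21 to 12.37.

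Tyrobp, an adaptor of microglial receptors, was at 6.10, 6.03, 6.64, 6.74 and 6.31 against 6.89, 7.13, 6.92, 6.75 and 6.43 (-0.46, SE 0.18). The fractalkine receptor Cx3cr1, whose water-deprived mean of 5.02 was under the filter, differed by -0.38 (SE 0.16), the Fc receptor gamma chain Fcer1g by -0.40 (SE 0.17) and the leukocyte phosphatase Ptprc by -0.23 (SE 0.11). Genes of DNA methylation and the clock were above control in 7 of 24 cases (median -0.07, from -0.11 without water-deprived array 3 to -0.04 without array 4 or control 4), with Dnmt3a the lowest and the clock output factor Dbp at -0.38 (SE 0.14). Of 21 cell division genes 7 were above control (median -0.10, or -0.05 without control 1 or control 3 and -0.06 without water-deprived array 4), with the mitotic kinase Aurkb at -0.82 (SE 0.27) beside Ccnd1.

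Levels of cell type marker genes differed among pools of the same group. Choroid plexus and ependymal markers had medians of 0.65, 1.13, -1.52, 0.37 and 0.88 in the water-deprived arrays and of 0.14, -1.42, 0.85, -0.78 and 1.42 in the controls. Water-deprived array 3 and controls 2 and 4 were the low ones, and the median over the 5 water-deprived arrays was 0.25, or -0.03 without control 2 and 0.91 without water-deprived array 3. Their summed log2 levels ran from 12.64 to 15.33 in water deprivation and from 13.18 to 15.10 in control. Kcne2, a potassium channel subunit of the choroid plexus, was at 10.50, 10.66, 4.62, 8.30 and 9.15 against 7.94, 5.34, 8.40, 5.84 and 9.62, and the folate receptor Folr1 at 10.73, 11.46, 6.91, 10.27 and 10.54 against 9.26, 7.07, 10.32, 8.25 and 10.73. Transthyretin, Ttr, differed by 0.01 (SE 0.24).

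Neuron markers had medians of -0.10 and -0.59 in the high-ratio arrays, 0.39, 0.06 and -0.22 in the low-ratio arrays and -0.77 to 0.56 in the controls. The lowest control was array 5 and the highest array 2. Oligodendrocyte markers were above control in 3 of 22 cases (median -0.21), and the sign turned without control 2, whose own median was 1.10 (list median 0.05 without it, and -0.47 without control 5). Myelin-associated glycoprotein, Mag, ranged from 6.70 to 8.76 in water deprivation and from 6.94 to 9.48 in control. Astrocyte and vascular markers had medians of -0.09 (-0.18 without control 5, -0.0084 without control 2) and 0.04 (-0.03 without control 2), with Gfap at -0.36 (SE 0.24) and the vessel-associated protein Vtn at -0.46 (SE 0.20). The part of these markers in the differences of other genes was not tested.

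More probe sets differed between the 2 kinds of water-deprived array than between the groups. In the second fit the high-ratio arrays were higher than the low-ratio arrays for 1033 probe sets (4.75%) and lower for 786 (3.62%) at a limma adjusted p of 0.05. Among the genes named here, Ttr was higher by 0.90 (SE 0.22; limma adjusted p = 0.0364) and Ctso and Ackr2 by 0.67 and 0.78 (limma adjusted p = 0.0203 and 0.0327). Atp1b1 was higher by 0.44 on its brightest probe set (limma adjusted p = 0.0483), and its other probe set gave 0.47 and did not pass. The brightest Fgl2 probe set was higher by 0.67 (limma adjusted p = 0.0138), and the other 3 gave -0.34 to 0.35 and did not pass. Besides the genes given above, Avp and Oxt were lower by -3.03 and -3.02 (limma adjusted p = 0.0416 and 0.0498), Dusp1 by -1.04 (0.0129) and Hdac4 by -0.68 (0.0404). Bpifa1, Htr5b, Mmp3, Grp and Plk2 did not pass this test, with differences from -0.22 to 0.13. They were chosen for differing from control in both kinds of array, which favours small values here. Of the others chosen that way, Bdnf, Ccl2, G0s2, Sctr, the Ccnd1 probe set and RT1-T24-3 gave -0.98, -0.55, -0.34, -0.33, -0.05 and 0.11, and none passed. Dnmt3a gave -0.66 on its brightest probe set, which did not pass, and -0.80 on the other, which did (limma adjusted p = 0.0327). RNA quality, tissue content and any difference in handling cannot be told apart here, since the high-ratio set holds no control.

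**Figure D5:**
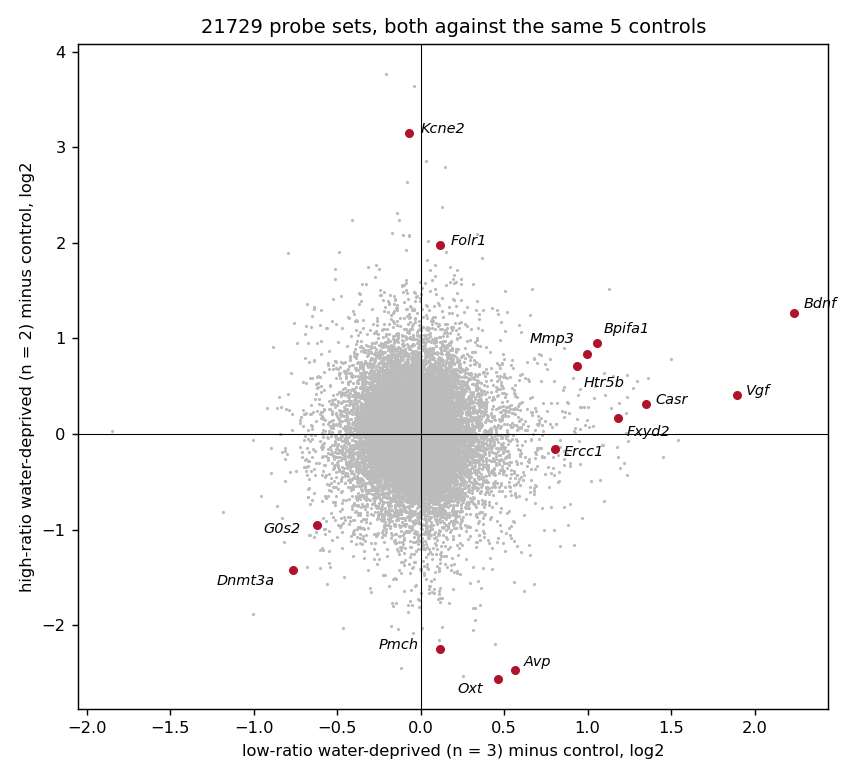
Difference from the mean of the 5 controls of the 3 low-ratio (horizontal) and the 2 high-ratio (vertical) water-deprived arrays, in log2 units, for 21729 probe sets, with genes of the text in red. Bdnf, Bpifa1, Mmp3 and Htr5b are above control on either axis and Dnmt3a and G0s2 below, Vgf, Casr, Fxyd2 and Ercc1 lie along the horizontal axis, and Kcne2, Folr1, Avp, Oxt and Pmch along the vertical; both axes share the controls, so a common trend is not independent evidence.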

How the data were processed

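RNA from pooled organs was amplified, biotin-labelled and hybridized, per the labels' protocols. The deposited table holds the authors' intensity of each probe set, not log-transformed; the submitters' processing notes name GCOS 1.2. Batches and the scaling target were not found in the sources used. In the deposited table every array has a trimmed mean of 100.0 (2% cut at each end), so values were kept as scaled. Probe sets with a mean above the 30th percentile over the 10 arrays (21729 of 31042) were tested with limma 3.58.1 in R 4.3.3 on log2(signal + 16), variance trend, two-sided, Benjamini-Hochberg over all tested; the steps were tested on simulated data. Precision is limited by the 5 arrays per group, and p-values measure the spread between pools. Of the probe sets, 20826 had 1 gene symbol in the platform annotation, 436 several and 9780 none; 20758 were matched by gene ID to RefSeq. A gene is its brightest probe set.

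Named are the 10 genes with the smallest p in each direction of each fit, genes on one side of all controls by 0.58 in both kinds of array, up to 5 genes per list by smallest p, and a fixed set of thirst, peptide and marker genes. Members and the 26 lists were chosen with earlier results of these data known. Alternatives were normalization (quantile, median centring), offset (1, 64), filter (none, 50th percentile), variance trend, array weights, all 15 arrays, a block on replicate number, a 1.5-fold minimum, the 5'/3' ratio as a covariate, the 8 low-ratio arrays alone, and leaving out each array. Shared replicate numbers did not pair the arrays.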

Additional observations from a re-analysis of the deposited data

Results flagged for a closer look

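In a group of 5 arrays, an array was marked when its gap to the nearest other exceeded 0.71 of the group's range (Dixon's test); chance marks about 1 in 20 groups, and 13 of 212 (6.13%) were marked. Water-deprived array 3, which has the lowest 5'/3' ratio, stood apart for Egr1 (7.72), Fkbp5 (7.72), Folr1 (6.91), Sgk1 (8.77) and the median of the choroid plexus and ependymal markers (-1.52). Water-deprived array 1 stood apart for Cndp1 (5.50) and Ptprc (5.81), each above the other water-deprived arrays and towards the controls, and array 5 for Psmc3 (8.69), below the others. Control 5 stood apart for G0s2 (6.55), Ackr2 (5.56) and Arc (5.57), control 4 for Calcr (8.33), which lies towards the low-ratio water-deprived arrays, and control 1 for RT1-T24-3 (4.90).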

How the results depend on the processing

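The first fit called 0 probe sets in each direction under 11 of 13 alternatives other than leaving out an array and without any 1 array; array weights gave 3 higher and 1 lower, and the fit of all 15 arrays 2 higher. With the set term, array weights gave 5 higher and the 15 arrays 7, and leaving out an array gave 0 to 1 higher (Fxyd2, without control 4) and 0 to 1 lower (Crygs at -1.60, limma adjusted p = 0.0448, without control 2). With the filter at the 50th percentile, 13 of the 79 named genes followed through the alternatives were too dim to be tested, Bpifa1, Htr5b and Mmp3 among them. The smallest limma adjusted p of the first fit was then 0.969. In the alternatives in which each was tested, 67 of the 79 kept their sign in the first fit and 65 with the set term. Many of the 79 were named for a small p or for groups without overlap, which favours a kept sign. Several alternatives, such as the filters, the variance trend and the 1.5-fold minimum, leave the difference itself unchanged. The counts are therefore a description and no measure of robustness. Among the genes that kept their sign were Bpifa1, Htr5b, Mmp3, G0s2, Vgf, Casr, Fxyd2 and Ercc1, each of which passed in at least 1 alternative. Htr5b and Mmp3 had control means under the filter, so that they kept their sign and passed supports nothing.

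In the first fit, the set term turned the sign of Scn7a (0.11), Avp (0.56), Oxt (0.46), Pmch (0.11), Kcne2 (-0.068), Ttr (-0.35), Slc5a3 (-0.047), Nfat5 (0.022), Junb (-0.096) and Mbp (-0.19). Quantile normalization turned Ttr (-0.17), Arc (-0.019) and Mbp (-0.041), array weights Ttr (-0.014), Junb (-0.087) and Arc (-0.021), and the ratio covariate Ttr (-0.058). Leaving out each array gave -0.28 to 0.25 for Agt, -0.15 to 0.24 for Ttr, -0.0010 to 0.53 for Slc5a3, -0.051 to 0.20 for Junb, -0.12 to 0.14 for Arc and -0.021 to 0.31 for Mbp.

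With the ratio covariate in place of the set term, Scn7a was -0.19, Avp -0.48, Oxt -0.62, Pmch -0.73, Kcne2 0.95, Slc5a3 0.16, Nfat5 -0.16, Junb 0.059 and Mbp 0.049. Array weights turned Pmch (-0.36), Kcne2 (0.55), Slc5a3 (0.12) and Nfat5 (-0.15), an offset of 64 Kcne2 (0.051), median centring Slc5a3 (0.0070) and Gfap (0.034), and quantile normalization Nfat5 (-0.0043). Leaving out each array gave -0.10 to 0.31 for Scn7a, -0.075 to 1.12 for Oxt, -0.31 to 0.52 for Pmch, -0.97 to 1.30 for Kcne2, -0.53 to 1.28 for Folr1, -0.43 to 0.40 for Slc5a3, -0.11 to 0.24 for Nfat5, -0.028 to 0.59 for Sgk1, -0.13 to 0.19 for Nr4a1, -0.22 to 0.084 for Junb, -0.20 to 0.17 for Gfap and -0.39 to 0.068 for Mbp. All of these are differences that did not pass, and the cause was not tested.

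Shared replicate numbers did not pair the arrays: same-numbered deviations correlated from -0.363 to 0.366, and 1 of 5 water-deprived arrays correlated best with its own number. With the number as a block limma called 0 probe sets in either fit, with 705 and 689 at an unadjusted p under 0.05 (smallest adjusted p 0.984 and 0.993). Beside the set term the block turned the sign of Scn7a (-0.11), Pmch (-0.39), Folr1 (-0.52), Mag (0.0099), Sgk1 (-0.0030), Nr4a1 (-0.0049) and Gfap (0.16).

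No control lies in the high-ratio set, so that set gives no comparison of its own, and with 5 pools per group the median SE of a difference was 0.16. Dim probe sets have compressed differences under the offset of 16.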

Other observations

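Other gene groups leaned little between the groups. Of 24 endoplasmic reticulum chaperones and stress genes 15 were above control (median 0.04), of 17 cytosolic chaperones 5 (median -0.07), and of 25 genes of lipid handling 10 (median -0.07), with G0s2 the lowest of the last list. Of 45 ion channels 22 were above control (median -0.03) and of 27 glutamate and GABA receptors 12 (median -0.02); in the latter the low-ratio arrays had a median of 0.14 and the high-ratio arrays of -0.24. Without 1 array these medians ranged from 0.0049 (control 2) to 0.08 (control 5) for the reticulum genes, -0.11 (water-deprived array 5) to -0.01 (control 5) for the cytosolic chaperones, -0.09 (array 4) to -0.0048 (array 1) for lipid handling, -0.13 (array 3) to 0.07 (control 2) for the channels and -0.16 (array 3) to 0.09 (control 2) for the receptors. The low-ratio median of the receptors was -0.10 without array 3.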
